A study of Mus musculus with 13 samples.

Results

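The replication-dependent histone genes and their clustered relatives were followed as 1 group of transcripts in sorted CD4+ T cells of mouse spleen. Members were the rows of the gene table whose symbol names a clustered H2A, H2B, H3 or H4 gene or a numbered H1 gene, with pseudogene names left out. There were 70 members among 56748 genes, made up of 11 H1, 18 H2A, 17 H2B, 12 H3 and 12 H4 genes. Of these, 61 passed the filter on low counts and were tested with the other genes, 14059 in all.

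Core histones H2A, H2B, H3 and H4 form the nucleosome, the protein spool around which DNA is wrapped, and H1 linker histones bind the DNA where it enters and leaves. Most of these genes are transcribed mainly during S phase, when new chromatin has to be packed, and their messages end in a short hairpin in place of a poly(A) tail. The hairpin is bound by the protein SLBP, and methods that select poly(A) RNA largely miss such messages. The libraries here were made from total RNA after removal of ribosomal RNA, so messages without a tail were counted.

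The 13 libraries came from mice of the Eomes-GFP or the Eomes-TKO line, both also carrying the Foxp3-Thy1.1 reporter. Eomes-GFP carries a green reporter of Eomes, a transcription factor of cytotoxic and memory T cells. The labels do not describe how Eomes-TKO was made. All mice received NK1.1-depleting antibody, 50 µg at each dose, were engrafted with Vk12653 multiple myeloma cells on day 0, and were given 20 µg of 4-1BB agonist antibody or of control IgG on days 10, 13 and 16. 4-1BB is a costimulatory receptor of activated T cells. On day 18, spleen cells positive for the T cell receptor and CD4 and negative for Thy1.1 were sorted, which leaves out cells with the Foxp3 reporter. The groups were Eomes-GFP under IgG (n = 2), Eomes-TKO under IgG (n = 3), Eomes-TKO under 4-1BB antibody (n = 2), and the GFP− (n = 3) and GFP+ (n = 3) fractions of Eomes-GFP mice under 4-1BB antibody. The labels give no age or sex. Nothing in them says that replicates were separate animals, so the tests here rest on library-to-library spread, which may be technical. GFP+ and GFP− libraries of the same number shared a library prefix, which was read as the animal. Prefixes differed within each group, so on that reading replicates would be separate animals, which the labels do not state.

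Library totals ran from 6080975 to 10881146 estimated counts, and 3 counts corresponded to 0.271 to 0.468 CPM (a unit that adjusts counts for library size). Eomes RNA, checked first, was at 570, 706 and 685 CPM in GFP+ cells, against 1.83 to 3.54 CPM in GFP− cells. It was at 14.0 and 16.8 CPM under IgG in Eomes-GFP, against 1.36 to 3.19 CPM under IgG and 3.59 and 8.03 CPM under 4-1BB antibody in Eomes-TKO. The 5 genes of the sort gate (Cd3d, Cd3e, Cd3g, Cd4 and Trac) summed to 2190 to 3030 CPM outside the GFP+ fraction and to 3670 to 4250 CPM in it.

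The hairpin at the end of the histone message is the feature that sets these transcripts apart, so 1 example of each hairpin found is shown. In the mouse GENCODE M21 transcripts (GRCm38), the motif GGNNCTNNNNAGNNCC, restricted to a fully complementary stem of 6 base pairs around a loop of 4 bases, was searched on the transcript strand after the stop codon. It was found in 43 of the 70 members, 21 to 58 bases after the stop codon, in 8 different sequences. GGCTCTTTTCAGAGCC was present in 24 members of the H1, H2A, H2B and H3 classes. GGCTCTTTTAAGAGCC and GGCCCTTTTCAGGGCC were present in 6 each, and the latter was held by H4 genes. The hairpin is in capitals, with up to 7 bases on either side.
H3c1: aaccaaaGGCTCTTTTCAGAGCCacacacg
H3c7: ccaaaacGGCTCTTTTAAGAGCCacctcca
H2ac20: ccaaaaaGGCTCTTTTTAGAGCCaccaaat
H3c8: ctttaaaGGCTCTTCTTAGAGCCacccatc
H4c3: aacaaaaGGCCCTTTTCAGGGCCacccaca
H4c9: acttaaaGGCCCTTTTTAGGGCCaccacaa
H4c1: aaccaaaGGCCCTTCTCAGGGCCgcccaca
H4c2: tacaaaaGGTCCTTTTCAGGACCactcact
Among the 27 members without a match, the transcript model ended at the stop codon in 15 and had under 100 bases after it in 6. Of the 6 with at least 100 bases after the stop codon, 4 were tested, namely H2bc4, H2bc21, H2bc24 and H1f0. No match says only that this pattern was not in the annotated transcript.

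The members lay in a few clusters. In the same annotation 55 were on chromosome 13, 10 on chromosome 3, and the other 5 were H1 genes on chromosomes 6, 11 and 15. RefSeq promoter sequences (GRCm38.p6) were matched by symbol for 62 of the 70 members, giving 63 promoters. Within the 150 bases before the start, on either strand, CCAAT was found in 79.4% of them against 24.5% of all 32851 promoters. TATAAA was found in 36.5% against 7.57%, the octamer ATTTGCAT in 15.9% against 0.998%, and GGTCCG, a core of the H4 promoter element, in 15.9% against 4.42%. A match describes the letters and is not evidence of binding. The windows of 3 genes that rose in GFP+ cells (H3c10, H1f5 and H2bc9) and of H1f0, which was not called there, are shown with the matches in capitals.
H3c10, chr13:21717478-21717627, plus strand: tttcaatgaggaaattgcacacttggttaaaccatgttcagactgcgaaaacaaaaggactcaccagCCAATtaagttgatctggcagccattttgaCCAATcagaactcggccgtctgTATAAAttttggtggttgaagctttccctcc
H1f5, chr13:21780626-21780775, minus strand: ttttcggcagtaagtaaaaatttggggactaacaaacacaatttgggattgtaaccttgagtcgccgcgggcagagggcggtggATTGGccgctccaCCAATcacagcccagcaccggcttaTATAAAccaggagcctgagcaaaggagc
H2bc9, chr13:23543445-23543594, minus strand: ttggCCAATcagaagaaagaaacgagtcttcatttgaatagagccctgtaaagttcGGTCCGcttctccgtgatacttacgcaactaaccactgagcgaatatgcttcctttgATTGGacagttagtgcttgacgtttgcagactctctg
H1f0, chr15:79028062-79028211, plus strand: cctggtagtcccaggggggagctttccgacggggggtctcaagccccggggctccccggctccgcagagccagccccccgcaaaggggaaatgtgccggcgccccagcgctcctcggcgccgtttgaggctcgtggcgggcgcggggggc
The H3c10 and H1f5 windows each hold TATAAA and a pair of CCAAT matches, with TATAAA starting 31 and 28 bases before the start. The H2bc9 window holds a pair of CCAAT matches and GGTCCG, and the H1f0 window holds none of the 4 motifs.

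Histone RNA was most abundant in the GFP+ fraction. The 70 members together made up 0.417% to 0.667% of all counts in the GFP+ libraries and 0.185% to 0.237% in the GFP− libraries. They made up 0.0867% and 0.13% in Eomes-GFP under IgG, 0.0711% to 0.122% in Eomes-TKO under IgG, and 0.104% and 0.239% in Eomes-TKO under 4-1BB antibody. The share in every GFP+ library was above that of the other 10 libraries. In bulk samples, fewer cells that make a transcript and less of it per cell cannot be told apart.

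The core histone genes summed to 632 and 908 CPM in Eomes-GFP under IgG, to 1650, 1900 and 1400 CPM in the GFP− fraction and to 4850, 5870 and 3160 CPM in the GFP+ fraction. These 3 groups did not overlap. Eomes-TKO cells gave 671, 851 and 509 CPM under IgG, and 725 and 1810 CPM under 4-1BB antibody. The 2 treated Eomes-TKO libraries thus lay far apart, 1 inside the range of the IgG libraries and 1 inside that of the GFP− libraries. Sums are given because many members share sequence, and a sum does not change with how reads were divided among the members in it. It can still change with reads given to copies outside it: all windows of 31 bases of H2ac18, H2ac19, H3c13 and H2bc18 also occur in annotated genes that are not members. Windows, here and below, were matched on either strand, so genes that overlap on the opposite strand count as sharing. No test was made on sums.

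**Figure D1:**
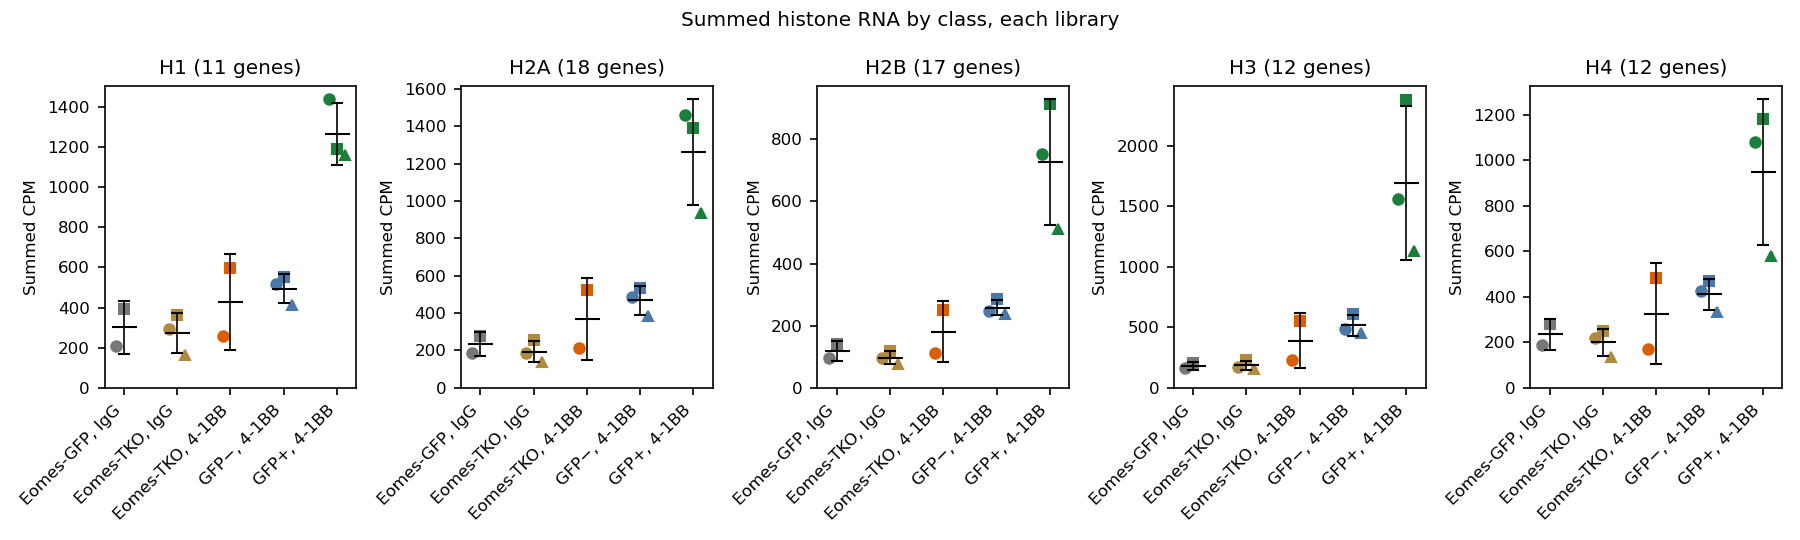
Summed level (TMM-scaled CPM) of the genes of each histone class in each library, by group. Symbols are libraries (circle, square and triangle for replicates 1, 2 and 3) and black marks are mean ± SD; all 5 classes are highest in the GFP+ libraries, and the 2 treated Eomes-TKO libraries are far apart.

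The 5 classes followed the same order of groups with different spans. H3 genes summed to 184 ± 33.2 CPM (SD, n = 2) in Eomes-GFP under IgG, 515 ± 83.5 CPM (n = 3) in GFP− cells and 1690 ± 635 CPM (n = 3) in GFP+ cells, a ratio of 9.21 between the last and the first. H2B genes were at 119 ± 32.3, 257 ± 24.4 and 726 ± 203 CPM, and H2A genes at 234 ± 64.3, 469 ± 78.1 and 1260 ± 283 CPM, with ratios of 6.1 and 5.41. H1 genes were at 302 ± 132, 494 ± 71.8 and 1260 ± 154 CPM, and H4 genes at 234 ± 67.2, 410 ± 69.7 and 947 ± 321 CPM, with ratios of 4.18 and 4.04. Differences between classes in these ratios were not tested.

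The first comparison asks how cells with and without the Eomes reporter differ within 4-1BB-treated mice. Histone genes of every class were higher in GFP+ cells: 46 of the 61 tested members rose and none fell (edgeR quasi-likelihood test, Benjamini-Hochberg adjusted p under 0.05). Of all tested genes, 20.7% rose and 37.1% were called in either direction. The median log2 fold change over the tested members was 1.47, against 0.02 over all genes. In 53 members every GFP+ library lay above every GFP− library, a separation seen in 27.6% of all tested genes, and in 1 member, H2bc21, every GFP+ library lay below. Leaving out any 1 library left 30 to 42 members called and 4188 to 4612 of all genes, with 30 members called without GFP− replicate 3. A fit that kept the shared prefix as a block called 51 members, and its count over all genes is not given. Markers of plasma cells and myeloma summed to 129 to 148 CPM in GFP+ libraries against 55.6 to 63.2 CPM in GFP− libraries, and myeloid markers to 49.1 to 81.6 against 17.4 to 34.6 CPM. Of the tested markers, 1 of 3 and 2 of 6 were called higher. In the GFP+ libraries the first list held Igkc at 76.1, 82.0 and 79.6 CPM and Xbp1 at 48.9 to 65.1 CPM, with Tnfrsf17 and Mzb1 at 0 and Sdc1 and Jchain at or below 0.554 CPM. The myeloid markers called were Itgam and Cd68, at 14.3 to 20.9 and 20.1 to 27.2 CPM in GFP+ cells, where Lyz2 was at 5.68 to 21.2 CPM and Cd14 at most at 0.215 CPM. The part of these cell types in the histone result was not tested.

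**Figure D2:**
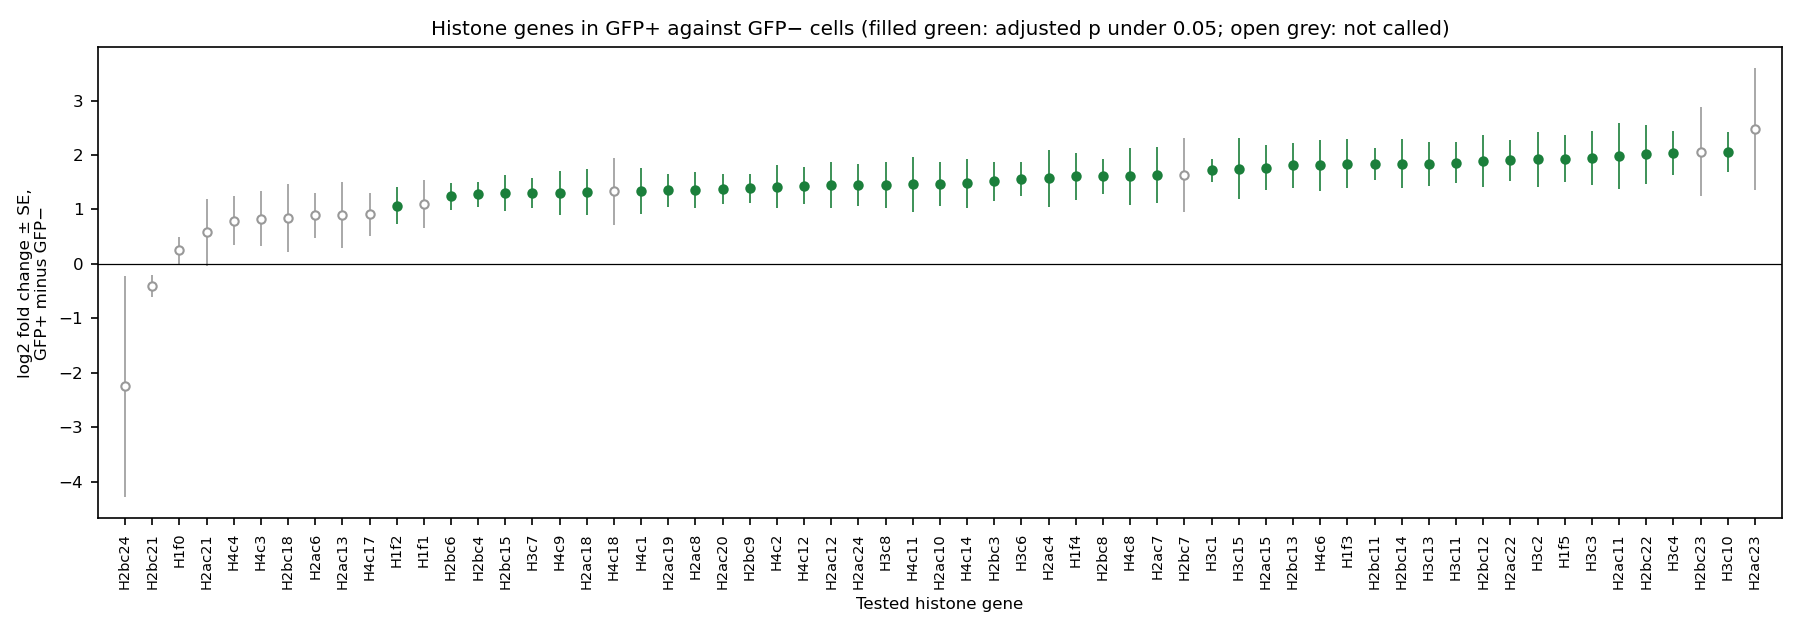
log2 fold change ± SE of each of the 61 tested histone genes in GFP+ minus GFP− cells of 4-1BB-treated Eomes-GFP mice, ordered by size. Filled green points (46) passed an adjusted p of 0.05 and all lie above 0; the open grey points (15) include H1f0 and H2bc21 near or below 0.

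All 11 tested H3 genes rose, with a median log2 fold change of 1.84. H3 carries the amino-terminal tail on which many regulatory marks are placed. H3c1 gave the smallest p of the members, with 92.3, 123 and 70.5 CPM in GFP+ cells against 28.4, 29.1 and 29.0 CPM in GFP− cells. The 3 GFP− libraries were nearly equal and every GFP+ library was well above them (log2 fold change 1.72 ± 0.21, SE, adjusted p = 2.48e-05). H3c10 gave the largest rise among called members, with 42.7, 94.4 and 33.4 CPM against 10.9, 15.2 and 14.6 CPM (2.06 ± 0.37, adjusted p = 0.000952). H3c4 was at 102, 141 and 67.8 CPM against 22.9, 29.7 and 22.8 CPM (2.04 ± 0.41, adjusted p = 0.00278). For all 3 genes GFP+ replicate 2 was the highest library and GFP+ replicate 3 the lowest of the GFP+ libraries. H3c2 (1.92 ± 0.50), H3c3 (1.95 ± 0.50) and H3c11 (1.86 ± 0.37) were also among the 10 largest rises. H3c7, 1 of the 5 tested members with the highest mean level, was at 236, 333 and 164 CPM against 99.3, 106 and 93.3 CPM (1.30 ± 0.28, adjusted p = 0.00361). The call of H3c2 was lost without GFP+ replicate 2 or without GFP− replicate 3 (adjusted p up to 0.052).

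Among the genes of the H2A and H2B pair, which enter the nucleosome as a dimer, 12 of 16 tested H2A and 11 of 16 tested H2B genes rose. H2bc11 was at 49.5, 71.9 and 29.9 CPM in GFP+ cells against 15.6, 13.0 and 13.5 CPM in GFP− cells (1.84 ± 0.29, adjusted p = 0.000191). H2ac22 was at 34.4, 34.8 and 17.8 CPM against 7.68, 9.26 and 6.41 CPM (1.90 ± 0.38, adjusted p = 0.00161). H2ac11, whose 150-base window overlaps that of H2bc11 on the opposite strand, was at 60.0, 44.8 and 31.4 CPM against 11.3, 15.5 and 7.86 CPM (1.98 ± 0.60, adjusted p = 0.0255). The low GFP+ library was replicate 3 in each of the 3 genes. H2bc22 (2.01 ± 0.55) and H2bc12 (1.89 ± 0.47) were the other members of the pair among the 10 largest rises. The call of H2bc22 was lost without GFP+ replicate 2 (adjusted p = 0.0729). H2ac18, which shares 89.6% of its windows of 31 bases with H2ac19, was at 268, 394 and 189 against 121, 148 and 71.6 CPM (1.32 ± 0.43, adjusted p = 0.0362). H2ac11 and H2ac18 both lost their calls without GFP+ replicate 1 or 2 or without GFP− replicate 1 or 3, with adjusted p up to 0.0906 and 0.133. Of 12 tested H4 genes, 8 rose, with a median over the class of 1.38. H4c6, the H4 gene with the largest rise, gave 87.4, 102 and 29.7 CPM against 25.1, 22.2 and 15.1 CPM (1.81 ± 0.47, adjusted p = 0.0119). H4c4 was at 229, 156 and 148 against 108, 119 and 81.7 CPM, groups that did not overlap, and was not called (0.79 ± 0.45, adjusted p = 0.206).

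Of 6 tested linker histone genes, 4 rose. H1f2 was at 624, 492 and 557 CPM in GFP+ cells and at 269, 299 and 232 CPM in GFP− cells (1.07 ± 0.34, adjusted p = 0.0319), the smallest rise of any called member. Its adjusted p was over 0.05 without any 1 of the 6 libraries. H1f5 was at 128, 147 and 82.6 CPM against 33.9, 33.7 and 26.6 CPM (1.93 ± 0.43, adjusted p = 0.0055). H1f3 (1.84 ± 0.45, adjusted p = 0.0103) and H1f4 (1.61 ± 0.43, adjusted p = 0.0158) also rose, the latter with adjusted p up to 0.058 without GFP+ replicate 1 or GFP− replicate 3. H1f1 was at 74.4, 44.4 and 48.5 CPM against 26.7, 31.8 and 19.4 CPM and was not called (1.10 ± 0.44, adjusted p = 0.076), although the groups did not overlap. H1f0, a linker histone made outside S phase and known from resting and differentiated cells, was at 22.7, 18.9 and 19 CPM against 18.4, 16.3 and 16.3 CPM and was not called (0.25 ± 0.25, adjusted p = 0.488). Its GFP+ and GFP− libraries did not overlap either.

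**Figure D3:**
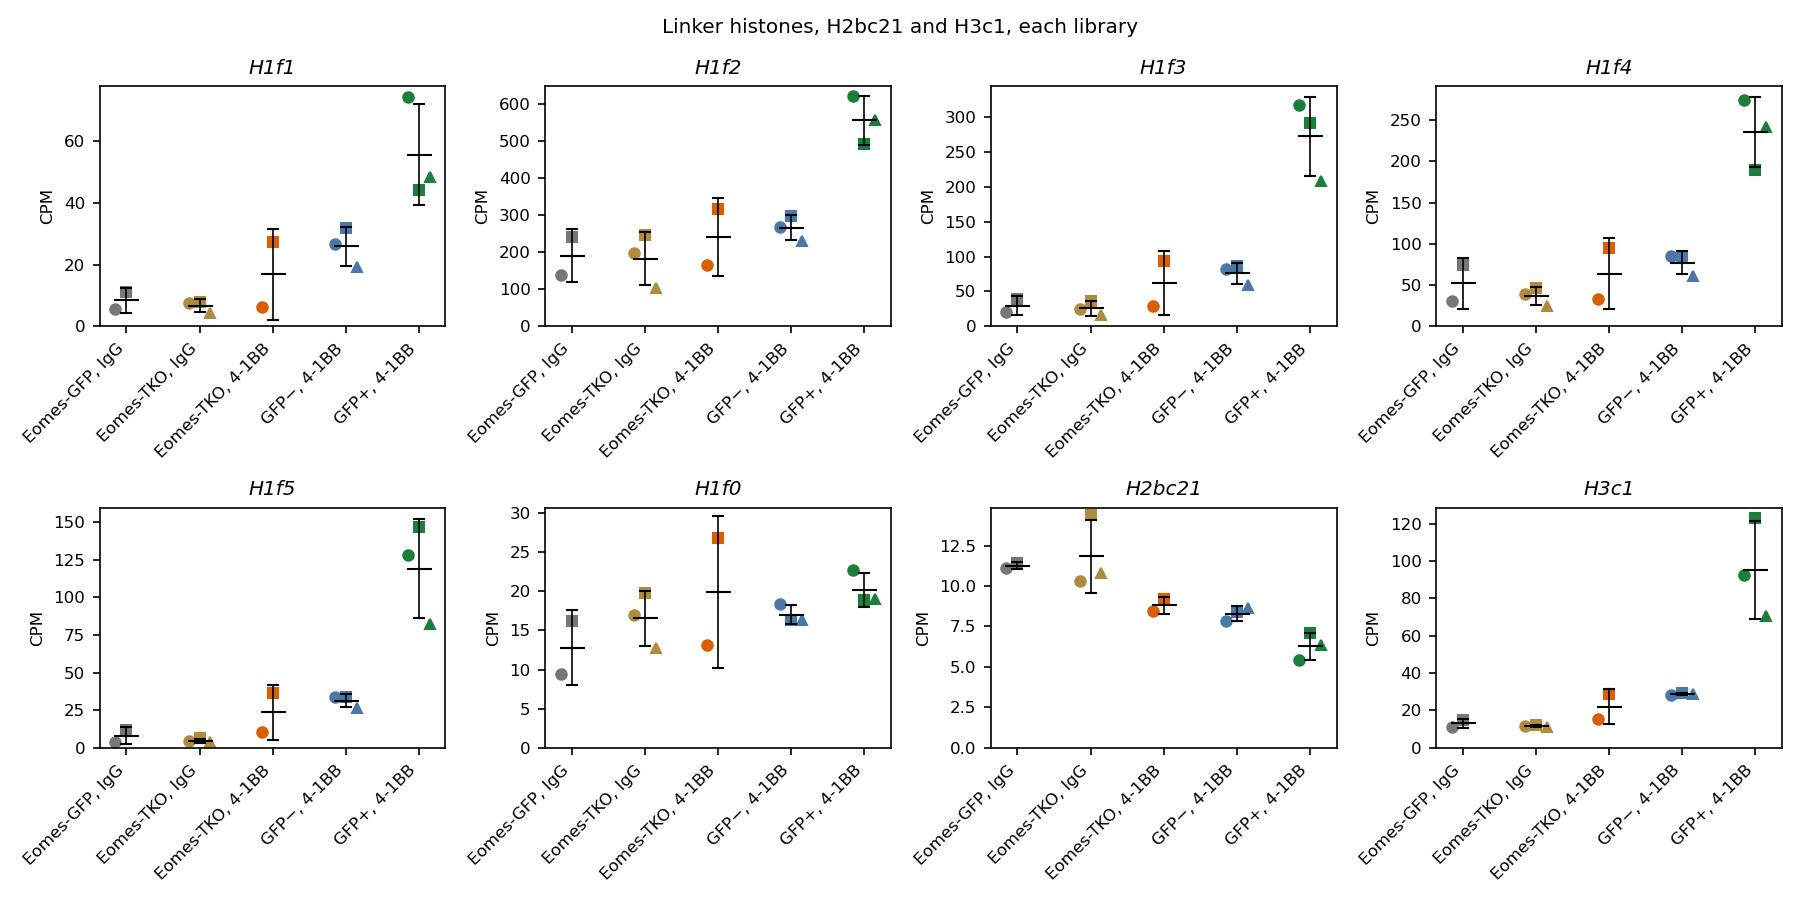
Levels (TMM-scaled CPM) of the 6 tested linker histone genes, of H2bc21 and of H3c1 in each library, by group, with mean ± SD in black and symbols as replicates. H3c1 and all the linker histone genes but H1f0 separate the GFP+ libraries from the rest. H1f0 spans 9.41 to 26.8 CPM, with no overlap among the Eomes-GFP groups, while the Eomes-TKO groups overlap them. H2bc21 is lowest in the GFP+ libraries.

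The make-up of the H1 counts was not the same in all groups. Counts here are not corrected for length, so shares of 1 gene are compared across groups and not between genes. H1f2 held 63.9% ± 3.75 of all H1 counts in Eomes-GFP under IgG (SD, n = 2), 54.1% ± 1.8 in GFP− cells (n = 3) and 44.3% ± 3.41 in GFP+ cells (n = 3). The share was 66.2% ± 2.96 in Eomes-TKO under IgG (n = 3), and 64.1% and 53.1% in the 2 Eomes-TKO libraries under 4-1BB antibody. H1f5 held 2.52% ± 0.742, 6.37% ± 0.246 and 9.48% ± 2.68 in the same 3 Eomes-GFP groups, and 1.83% ± 0.371 in Eomes-TKO under IgG. H1f3 went from 9.77% ± 0.247 through 15.3% ± 0.866 to 21.6% ± 3.37. H1f0 held 4.29% ± 0.29, 3.49% ± 0.505 and 1.6% ± 0.0321. For H1f2, H1f3, H1f5 and H1f0 the 3 Eomes-GFP groups did not overlap. The other tested H1 genes had groups that overlapped: H1f1 held 2.76% ± 0.127, 5.21% ± 0.531 and 4.36% ± 0.723, and H1f4 16.7% ± 2.97, 15.6% ± 0.902 and 18.7% ± 2.48.

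Of the 15 members not called between GFP+ and GFP− cells, 13 had fold changes above 0. H2bc21, which encodes an H2B variant known to be made as a polyadenylated message, went the other way. It was at 5.40, 7.07 and 6.34 CPM in GFP+ cells, 7.81, 8.41 and 8.67 CPM in GFP− cells and 11.1 and 11.4 CPM in Eomes-GFP under IgG. Each GFP+ library was below each GFP− library, but the difference was not called (−0.40 ± 0.20, adjusted p = 0.135). Under upper-quartile normalization, which moved the median of all genes from 0.02 to −0.12, 43 members were called higher and 1 lower, and the higher share of all calls went from 2905 of 5220 to 2186 of 5281.

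H2bc24, the other member below 0, shares most of its sequence with H2bc23. It was at 12.8 CPM in GFP− replicate 1, 13.7 CPM in Eomes-TKO IgG replicate 2 and 6.51 CPM in Eomes-TKO IgG replicate 3, and at 0 to 2.91 CPM in the other 10 libraries. Its copy H2bc23 was at 3.90, 0 and 0.797 CPM in those 3 libraries and at 7.50 to 78.9 CPM in the other 10. All 31-base windows of the annotated H2bc23 transcript occur in H2bc24, and 89.4% of those of H2bc24 occur in H2bc23. The pair summed to 57.4, 78.9 and 39.6 CPM in GFP+ cells, 16.7, 19.1 and 18.8 CPM in GFP− cells, and 7.5 and 9.2 CPM in Eomes-GFP under IgG, 3 ranges that do not overlap. Neither gene was called alone (2.06 ± 0.82, adjusted p = 0.0806, for H2bc23, and −2.25 ± 2.03, adjusted p = 0.434, for H2bc24). H4c17 and H4c18 share 85.2% to 91.7% of their windows and were not called either. They summed to 192, 190 and 98.9 CPM against 74.2, 77.5 and 58.6 CPM.

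Sharing of sequence was common. Over the tested members a median of 64.1% of the 31-base windows of the transcript also occurred in another gene, on either strand. Of the 61, 42 had fractional estimated counts in all 13 libraries, so single copies of the core classes are uncertain. Members with 50% of windows shared or less gave 15 called of 21, with a median log2 fold change of 1.34. Those with over 50% and up to 90% shared gave 23 called of 27, with a median of 1.64, and those over 90% shared gave 8 of 13, with a median of 1.45. Members with a hairpin match gave 34 called of 41 (median 1.52, range 0.79 to 2.47), and those without one 12 of 20 (median 1.44). These differences between kinds of members were not tested. The tested genes on chromosome 13 gave 40 called of 51 and those on chromosome 3 gave 6 of 9. H1f0, on chromosome 15, was not called.

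Against undivided cells of Eomes-GFP mice under IgG, GFP+ cells had 52 members higher and 1 lower, where 18.8% of all tested genes were higher and 15.4% lower. The median log2 fold change was 2.94. The antibody given and the sort by GFP differ together in this comparison and cannot be told apart. H2bc22 gave the largest rise, from 0 and 0.587 CPM under IgG to 4.99, 13.7 and 6.77 CPM (4.66 ± 0.81, adjusted p = 0.000458), with 1 IgG library under the 3-count floor of 0.382 CPM and a size that depends on the prior count. H2ac22 went from 1.27 and 1.86 to 34.4, 34.8 and 17.8 CPM (4.18 ± 0.54, adjusted p = 4.28e-05). H3c3 and H3c2 rose by 4.08 ± 0.67 and 4.07 ± 0.67, and H2bc11 by 3.83 ± 0.39 (adjusted p = 4.02e-06). H1f5 went from 4.2 and 12 CPM to 128, 147 and 82.6 CPM (3.84 ± 0.57, adjusted p = 0.000487), while H1f2 rose by 1.55 ± 0.40 (adjusted p = 0.0126). The member that fell was H2bc21 (−0.84 ± 0.22, adjusted p = 0.0082), a call lost without IgG replicate 2 (adjusted p = 0.0565). The call of H1f2 was lost without IgG replicate 1 (adjusted p = 0.12). H1f0 was not called (0.65 ± 0.29, adjusted p = 0.103). Of 6 tested myeloid markers 5 were called higher, and the list summed to 49.1 to 81.6 against 9.3 and 9.41 CPM. Of 3 tested markers of plasma cells and myeloma 1, Igkc, was called higher, and that list summed to 129 to 148 against 48.3 and 48.9 CPM. The part of these markers' cell types was not tested.

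GFP− cells of treated mice lay between the other Eomes-GFP groups. Against IgG cells, 2 members rose, H2bc11 (1.99 ± 0.38, adjusted p = 0.0297) and H2bc9 (1.75 ± 0.34, adjusted p = 0.031), where 0.654% of all tested genes rose and 0.761% were called in either direction. H2bc11 was at 3.31 and 3.72 CPM under IgG and at 15.6, 13.0 and 13.5 CPM in GFP− cells, and H2bc9 at 2.67 and 5.87 against 13.2, 17.8 and 13.2 CPM. Neither pair of groups overlapped. The median over the tested members was 1.34, and 51 members lay above every IgG library in every GFP− library, a separation seen in 14.3% of all tested genes. At an unadjusted p under 0.05 there were 37 of the 61 members, and 1231 of all 14059 tested genes. The count of calls depended on the test: DESeq2 called 21, a fit of the 2 groups alone 27 and limma-voom 0. Counts over all genes are not given for these. Leaving out any 1 GFP− library left no member called, and 16 to 21 of all genes. Myeloid markers summed to 9.3 and 9.41 CPM under IgG against 17.4 to 34.6 CPM in GFP− cells, and their part was not tested. The GFP+ and GFP− comparisons with IgG cells share those 2 libraries. H1f2 was at 140 and 242 CPM under IgG and 269, 299 and 232 CPM in GFP− cells, overlapping groups with no call (0.48 ± 0.38, adjusted p = 0.845). H1f5 was not called either (1.91 ± 0.54, adjusted p = 0.212), although its groups did not overlap.

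Of the 61 tested members, 47 had all IgG libraries below all GFP− libraries and these below all GFP+ libraries, an order held by 5.66% of all tested genes. The 14 outside it were H1f2, H1f4, H2ac6, H2ac19, H2ac21, H2bc18, H2bc21, H2bc23, H2bc24, H4c4, H4c9, H4c14, H4c17 and H4c18. H2ac19 was at 57.7 and 96.1 CPM under IgG, 85.0, 87.7 and 99.1 CPM in GFP− cells and 303, 234 and 156 CPM in GFP+ cells, so its first 2 groups overlapped. H4c14 was at 37.1 and 35.4, then 43.2, 56.5 and 40.4, then 103, 233 and 56.5 CPM, so its last 2 groups touched.

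**Figure D4:**
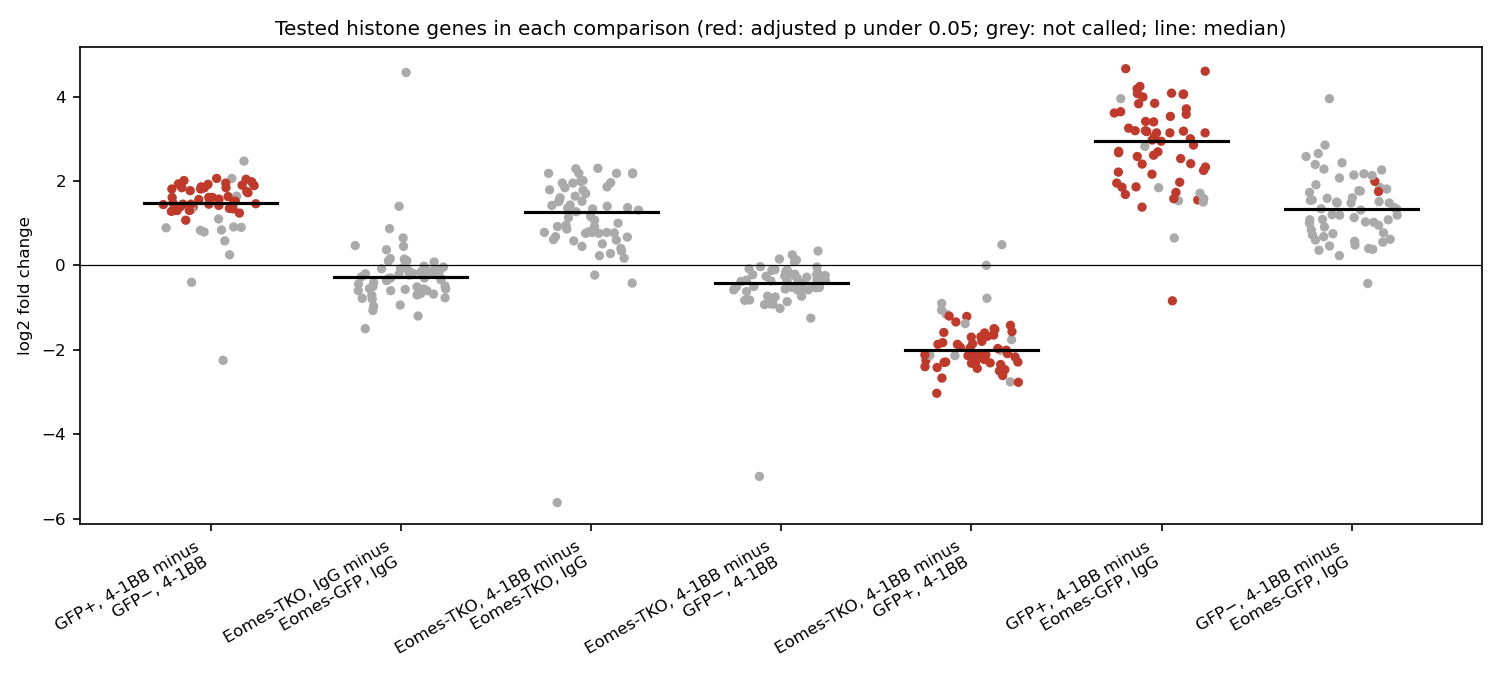
log2 fold changes of the 61 tested histone genes in each of the 7 comparisons, with called genes in red, uncalled genes in grey and the median as a black line; horizontal jitter has no meaning. The 3 comparisons that involve GFP+ cells hold nearly all red points, and the medians of the treatment in Eomes-TKO (1.27) and of GFP− against IgG cells (1.34) lie above 0 with 0 and 2 calls; the lowest points, at −5.62 and −5, are H2bc24.

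In Eomes-TKO mice the question is what the 4-1BB antibody does in the absence of the reporter sort. No member was called between treated and IgG libraries by edgeR, where 0.0427% of all tested genes were called, all higher, and 33 of the 61 members had an unadjusted p under 0.05, as did 506 of all 14059 tested genes. The median was 1.27 and 58 members had fold changes above 0. DESeq2 called 9 members and limma-voom 0, and the counts over all genes are not given for these tools. The count called by edgeR rose without the filter on low counts, as given at the end. The 2 treated libraries differed: replicate 2 was above replicate 1 in 60 of 61 members and above every IgG library in 56, while replicate 1 was inside or below the IgG range in 39. The shares of all tested genes in these orders were not computed, so the counts are not read as particular to histone genes. The median was 1.78 without treated replicate 1 and 0.18 without treated replicate 2. H1f5 was at 10.8 and 36.3 CPM under 4-1BB antibody and at 4.48, 6.21 and 3.72 CPM under IgG (2.30 ± 0.54, adjusted p = 0.369). H2ac8 had the smallest p and was not called, at 4.37 and 16.2 CPM against 1.88, 2.37 and 2.79 CPM. It was followed by H2bc9, at 6.40 and 11.1 CPM against 2.92, 3.16 and 1.99 CPM (1.70 ± 0.35, adjusted p = 0.102). H2bc11 came next, at 4.84 and 10.5 against 2.29, 2.07 and 2.13 CPM (1.86 ± 0.39, adjusted p = 0.123). In each of these genes every treated library was above every IgG library. That held for 23 members, and 1 member lay wholly below, where 7.04% and 8.86% of all tested genes did so. Igkc was at 7.34 and 15.6 CPM in the treated libraries and at most at 1.67 CPM under IgG. Myeloid markers summed to 17.5 and 18.8 against 10.1 to 13.7 CPM, with 5 of 6 tested above 0, 1 below and 0 called. The part of these markers' cell types was not tested here.

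Treated Eomes-TKO cells had 49 members lower than GFP+ cells and none higher, where 18.8% of all tested genes were lower, with a median of −2.01. Genotype and reporter sort differ together here and cannot be told apart. H2bc22 (−3.03 ± 0.70), H2bc11 (−2.67 ± 0.36) and H3c3 (−2.50 ± 0.60) showed large falls, and H3c1 was at 15.3 and 28.7 CPM against 92.3, 123 and 70.5 CPM (−2.09 ± 0.26, adjusted p = 2.34e-05). Leaving out 1 GFP+ library left 36 to 46 members called, all lower, and 4192 to 4499 of all genes. The median was −1.45 without treated Eomes-TKO replicate 1 and −3.02 without replicate 2. Over the fits without 1 library the fold change of H3c3 ran from −3.62 to −1.89, and its call was not kept in all of them. Myeloid markers summed to 17.5 and 18.8 against 49.1 to 81.6 CPM, with 2 of 6 tested called lower, and markers of plasma cells and myeloma to 61.7 and 73.1 against 129 to 148 CPM, with Igkc called lower and Jchain higher among the 3 tested. Their part was not tested. Against GFP− cells no member was called, where 0.00711% of all tested genes were higher and 0.0356% lower, 2 members and 980 of all 14059 tested genes had an unadjusted p under 0.05, and DESeq2 and limma-voom called none. The median was −0.42, and it was 0.11 without treated replicate 1 and −1.48 without treated replicate 2. H3c1 was at 28.4, 29.1 and 29.0 CPM in GFP− cells, near the 28.7 CPM of treated Eomes-TKO replicate 2 and above the 15.3 CPM of replicate 1 (−0.37 ± 0.25, adjusted p = 0.855).

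Under control IgG, the core histone sums of Eomes-TKO and Eomes-GFP cells overlapped. No member was called by edgeR, DESeq2 or limma-voom, where edgeR called 0.0142% of all tested genes, and 2 of the 61 members had an unadjusted p under 0.05, as did 430 of all 14059 tested genes. The median was −0.27, with 48 members below 0, and it was 0.11 without Eomes-GFP IgG replicate 2. H1f2 was at 199, 246 and 104 CPM in Eomes-TKO and 140 and 242 CPM in Eomes-GFP (−0.06 ± 0.38, adjusted p = 1), and H3c1 at 11.7, 12.1 and 11.4 against 11.4 and 14.8 CPM (−0.16 ± 0.26, adjusted p = 1). In 2 members every Eomes-TKO library lay above every Eomes-GFP library and in 6 below, where 9.63% and 8.62% of all tested genes did so.

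Of 22 genes on a companion list of those that make and degrade histone messages, 7 rose and 1 fell between GFP− and GFP+ cells, with a median of 0.18. Over all tested genes 20.7% rose, 16.5% fell, 37.1% were called in either direction and the median was 0.02. On this list 14 of 22 were not called, so the share called in either direction lay near that of all genes. The split between rises and falls was not tested. Slbp, the hairpin-binding protein, was at 98.3, 90.1 and 98.9 CPM in GFP+ cells and 62.2, 61.3 and 51.4 CPM in GFP− cells (0.72 ± 0.11, adjusted p = 9.76e-05). Npat, the coactivator of histone gene transcription, was at 75.1, 87.2 and 69.0 against 70.7, 64.6 and 57.3 CPM and was not called (0.26 ± 0.11, adjusted p = 0.0734). Ccne1, a cyclin of the kinase that acts on NPAT, rose by 1.56 ± 0.26 (adjusted p = 0.000307), from 5.74 ± 0.316 to 16.9 ± 1.95 CPM (n = 3 each). Zfp473, a factor of 3′ end processing, rose by 1.48 ± 0.37, Ccne2 by 1.37 ± 0.41, and Mif4gd, which links SLBP to translation, by 1.32 ± 0.13 (adjusted p = 2.16e-06). Cpsf3, the endonuclease that cuts the message end, fell by 0.36 on the log2 scale (SE 0.09, adjusted p = 0.00508).

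Of 25 histone chaperones and import factors, 8 rose and 3 fell, with a median of 0.16, again beside 20.7% and 16.5% of all tested genes. Chaf1a, a subunit of the assembly factor that acts behind the replication fork, was at 28.1, 23.6 and 21.1 CPM in GFP+ cells and 9.03, 8.89 and 7.23 CPM in GFP− cells (1.53 ± 0.25, adjusted p = 0.000214). Asf1b, a chaperone of new H3 and H4, rose by 1.30 ± 0.24, while its paralogue Asf1a fell (−0.48 ± 0.17, adjusted p = 0.0404). Tonsl and Mms22l, partners in a complex that acts at damaged forks, rose by 1.25 ± 0.18 each. Nasp, a chaperone of the H3 and H4 pool, fell (−0.71 ± 0.21, adjusted p = 0.017), and Ipo4, an import receptor of H3 and H4, was at 10.7, 14.3 and 11.9 CPM against 31.8, 32.8 and 32.6 CPM (−1.40 ± 0.14, adjusted p = 2.06e-06).

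Histone variants outside the clusters, most of them made with poly(A) tails, rose in 3 of 8 tested cases and fell in 1, where 37.1% of all tested genes were called in either direction. H2ax, the variant phosphorylated at DNA breaks and made in both message forms, was at 171, 194 and 119 CPM in GFP+ cells and 66.3, 70.8 and 59.5 CPM in GFP− cells (1.30 ± 0.25, adjusted p = 0.00168). H2az1 (0.83 ± 0.14) and H2az2 (0.61 ± 0.15) rose, H3f3a, 1 of the genes of H3.3, fell (−0.37 ± 0.12, adjusted p = 0.0206), and H3f3b was not called (0.07 ± 0.19, adjusted p = 0.806).

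Cell cycle genes were also higher in GFP+ cells. Of 30 DNA replication genes 23 rose and none fell (median 0.97), and all 20 mitosis genes rose (median 1.67), where 20.7% of all tested genes rose. Tk1, a nucleotide salvage enzyme of S phase, was at 25.9, 39.1 and 20.8 CPM in GFP+ cells and 7.93, 6.94 and 6.05 CPM in GFP− cells (2.04 ± 0.31, adjusted p = 0.000132). Mki67, a marker of cycling cells, rose by 1.53 ± 0.45 (adjusted p = 0.0248). Pcna, the replication clamp, was not called (0.17 ± 0.11, adjusted p = 0.257). The mitosis list also rose in GFP− against IgG cells, with 14 of 20 called (median 1.95), where 0.654% of all tested genes rose. Of the 30 replication genes 1 rose there (median 0.55). For treatment in Eomes-TKO 3 mitosis genes and 0 replication genes were called higher (medians 1.8 and 0.36), where 0.0427% of all tested genes rose. Core histone CPM per CPM of the replication list was 0.826 and 1.16 in Eomes-GFP under IgG, 1.36 to 1.83 in GFP− cells and 1.95 to 2.66 in GFP+ cells. It was 0.716 to 1.04 in Eomes-TKO under IgG, and 0.94 and 1.79 under 4-1BB antibody. Per CPM of the mitosis list the ratio ran the other way, from 5.5 and 4.59 under IgG to 2.68 to 3.07 in GFP− and 2.15 to 3.07 in GFP+ cells. In Eomes-TKO it was 5.31 to 6.64 under IgG, and 3.24 and 3.33 under 4-1BB antibody. Treated Eomes-TKO replicate 2, the library with more histone RNA, also held more of both lists than replicate 1, at 1010 against 771 CPM and 544 against 224 CPM. Replicate 1 was inside the 711 to 815 CPM of Eomes-TKO under IgG for replication, and above its 95.8 to 136 CPM for mitosis.

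**Figure D5:**
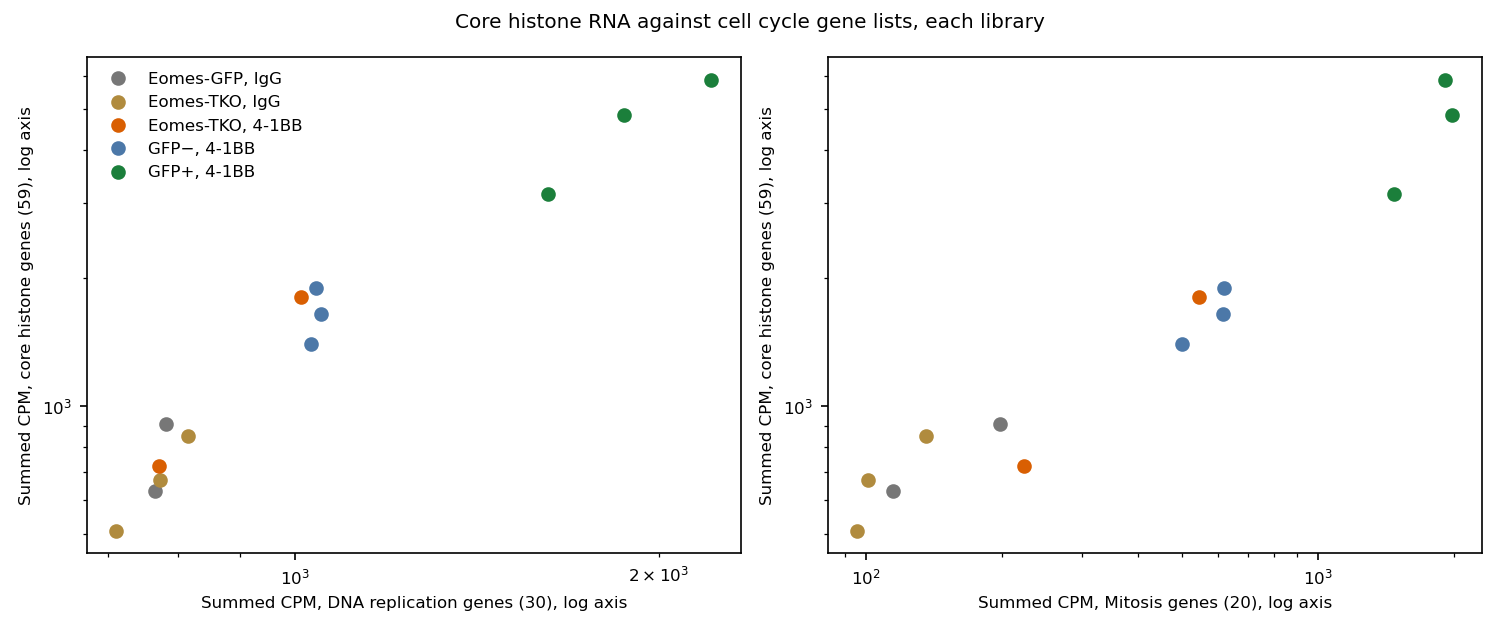
Summed CPM of the 59 core histone genes (log axis) against summed CPM of 30 DNA replication genes (left) and 20 mitosis genes (right, log axes), 1 point per library, coloured by group. The GFP+ libraries lie at the top right of both panels, and the treated Eomes-TKO libraries lie 1 with the IgG libraries and 1 with the GFP− libraries for replication.

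The 9 members that were not tested had few or no counts. H1f7, H1f8, H1f9, H2ac1, H2ac14, H2bc1 and H3c14 had no count in any library, H1f6 had 1 count in all and H1f10 had 7. H1f7, H1f8 and H1f9 are linker histones of germ cells, as is H1f6, and H2ac1 and H2bc1 are testis forms. A count of 0 allows up to 3 counts, or 0.271 to 0.468 CPM by library, counting error only. All windows of H3c14 occur in other genes, so a count of 0 there does not show that its message was missing.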

How the data were processed

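Total RNA of sorted spleen CD4+ T cells was sequenced after ribosomal RNA depletion, per the labels' protocols. Estimated counts by gene were deposited in 1 table. The submitters' processing notes name Salmon 1.5.2, STAR 2.7.10a, the trimmers Trim Galore 0.6.7 and cutadapt 3.4, and the build GRCm39. Of 47 library columns, 13 matched 1 sample each, and 34 were not used here. Estimated counts were rounded. Salmon divides reads among copies, among them copies outside the members, so single members are less certain than class sums, which share part of that limit. Groups came from the labels.

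edgeR 4.0.16 in R 4.3.3 (TMM, filterByExpr, robust quasi-likelihood, 13 libraries in 1 model of 5 groups, 8 residual degrees of freedom, Benjamini-Hochberg over 14059 genes, threshold 0.05, two-sided) gave all adjusted p-values unless another tool is named. Each SE was taken from the log2 fold change and the F statistic (size over root F). Levels are TMM-scaled CPM. The test was tried on simulated counts. Members and lists were chosen with earlier results of these data known. Named genes were, per comparison, up to 10 called members per direction with the largest change (where fewer than 3 passed, the 3 smallest p), the 5 with the largest mean level, all tested H1 genes, and up to 4 per direction of each companion list. Other members named for a pattern (H2bc21, H2bc23, H2bc24, H4c17 and H4c18 among them) were chosen after their values were seen. Floors cover counting error only, while each SE and SD takes in the spread between libraries.

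Replicate libraries differed beyond counting noise (chi-square over its degrees of freedom 8.01 to 30.9). For GFP+ and GFP− libraries with a common prefix, the correlations of deviations were 0.4, 0.11 and 0.05, against −0.32 to 0.22 for other pairs. Alternatives were other scalings, DESeq2 1.42.0, limma-voom (limma 3.58.1), other filters, each pair of groups alone, a threshold of 1.5 on the fold, blocking on replicate number, and fits without each library in turn. Sequences came from GENCODE M21 (GRCm38) and RefSeq (GRCm38.p6), not from the authors' build. No coordinates on GRCm39 were used here.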

Additional observations from a re-analysis of the deposited data

How the results depend on the processing

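Counts over all genes are not given in this paragraph, so the counts of called members are not read as particular to histone genes. RLE factors, TMM computed without the members and a filter of 1 CPM in 3 libraries kept each count of called members within 1.5 times of the value given. Without any filter the counts were 4 for genotype under IgG, 47 for treatment in Eomes-TKO, 5 for treated Eomes-TKO against GFP− and 51 for GFP− against IgG, and the cause was not tested. The last comparison, with 2 called, gave 0 with limma-voom, 0 at a fold threshold of 1.5, 21 with DESeq2, 27 with the 2 groups alone and 0 without any 1 library. A fold threshold of 1.5 left 29 for GFP+ against GFP−. DESeq2 called 9 for treatment in Eomes-TKO. The replicate block gave 1 for genotype under IgG, 1 for treatment in Eomes-TKO, 31 for treated Eomes-TKO against GFP+ and 35 for GFP− against IgG, and 51 for GFP+ against GFP−; outside the last, the groups share only a number. Leaving out 1 library gave 30 to 42 for GFP+ against GFP−, 0 to 14 for treatment in Eomes-TKO and 26 to 51 for treated Eomes-TKO against GFP+.

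Some members with no call changed sign, at fold changes given here on the log2 scale. For genotype under IgG, the block gave 0.27 for H1f2, 0.14 for H2ac19, 0.22 for H4c4 and 0.09 for H1f3. Leaving out 1 library in that comparison gave −0.40 to 0.39 for H1f2, −0.39 to 0.35 for H2ac19, −0.54 to 0.40 for H4c4, −0.60 to 0.37 for H1f3, −0.74 to 0.27 for H1f1, −1.0 to 0.28 for H1f4, −1.31 to 0.21 for H1f5 and −0.05 to 0.22 for H3c7. For treatment in Eomes-TKO it gave −0.14 to 0.78 for H1f2, −0.02 to 1.27 for H2ac18, −0.03 to 0.80 for H2ac19, −0.14 to 1.29 for H4c4, −0.08 to 2.01 for H1f1, −0.16 to 1.34 for H1f4 and −0.34 to 0.69 for H1f0. For treated Eomes-TKO against GFP− it gave −0.68 to 0.24 for H1f2, −0.92 to 0.04 for H3c7, −1.01 to 0.42 for H4c4, −2.02 to 0.07 for H1f1, −1.22 to 0.29 for H1f4, −1.37 to 0.31 for H1f3, −1.54 to 0.21 for H1f5, −0.33 to 0.49 for H2ac19 and −0.38 to 0.65 for H1f0. For GFP− against IgG it gave −0.08 to 0.65 for H2ac19. Where a group is left with 1 library, that library is assumed to vary like the others. The groups of 2 and 3 libraries and the sharing of reads among copies limit what single members can show.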
